A study of Mus musculus with 16 samples.

Results

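The genes described here encode voltage-gated sodium and calcium channels, potassium channels of every structural class, and hyperpolarization-activated channels, together with their auxiliary subunits. They were chosen by gene symbol alone, as all probesets named Scn, Kcn, Cacna, Cacnb, Cacng or Hcn with the usual subunit numbering, which gave 125 genes, each on 1 probeset, of 22206 gene probesets on a Clariom S array. Of the 125, 10 were Scn, 87 Kcn, 25 Cacn and 3 Hcn genes.

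All animals were S100a5-tauGFP mice, in which a green fluorescent protein (GFP) reports S100a5, a gene whose expression in olfactory sensory neurons depends on their activity. The study used 24 mice of both sexes, aged 7 to 12 weeks. Each mouse was kept alone for 40 h in a chamber with clean air flowing at 3.1 L/min and, from 26 h on, for 14 h, was given an odorant, or filtered air as vehicle, in 10 s pulses 20 min apart. The sample labels give the odorant as bourgeonal whereas the series is titled with indole, and the text below speaks only of an odorant. The dissociated olfactory mucosa of 3 mice was pooled and sorted into GFP+ and GFP- cells, which gave 4 groups of 4 arrays: GFP+ cells of odorant mice, GFP- cells of odorant mice, GFP+ cells of vehicle mice and GFP- cells of vehicle mice. With 24 mice in pools of 3 there were 8 pools, and the GFP+ and GFP- arrays of 1 pool share their animals. Every group carries the reporter, so no array shows mice without it.

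An olfactory sensory neuron turns odor binding into cyclic AMP, which opens cyclic nucleotide-gated channels. Calcium that enters through them opens the chloride channel Ano2, and the resulting depolarization is turned into action potentials by voltage-gated sodium channels. Potassium channels set the resting potential and end each spike, hyperpolarization-activated channels carry an inward current at negative potentials, and calcium channels of the axon terminal trigger glutamate release in the olfactory bulb.

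Signals are log2 values as deposited. A signal was counted as above background when it exceeded the background level of its array, the 95th percentile of 23 antigenomic controls, which have no target in the mouse genome (levels 6.57 to 6.87). Within a group, pairs of arrays had r of 0.987 to 0.994 across genes, which are not independent replicates. Omp, which marks mature neurons of this type, averaged 18.69 in odorant GFP+, 18.59 in odorant GFP-, 18.67 in vehicle GFP+ and 18.63 in vehicle GFP- cells. S100a5 itself was higher in GFP+ cells by 1.14 with odorant (adjusted p = 0.0025) and by 0.93 with vehicle (adjusted p = 0.0024). Adjusted p values throughout come from limma, by Benjamini and Hochberg's method across the 22206 gene probesets, and differences under 0.05 are called higher or lower. They measure the spread between arrays of a group, each from its own pool of mice. The fits of the fractions and of the interaction leave out that GFP+ and GFP- arrays share a pool. Fits with the pool as a block are given as an alternative.

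Of the 125 channel genes, 36 (28.8%) exceeded background on all 16 arrays, 10 did so on 1 to 15 arrays and 79 (63.2%) on none. Over all gene probesets 9502 (42.8%) were above background on all 16 arrays. On single arrays 37 to 40 of the 125 were above background. The 79 genes that never exceeded it had signals of 2.32 to 6.37, with a median of 4.03 and no group mean over 5.95. A signal under the background level shows neither presence nor absence of the transcript, and a difference between such signals is a difference in array signal only.

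**Figure D1:**
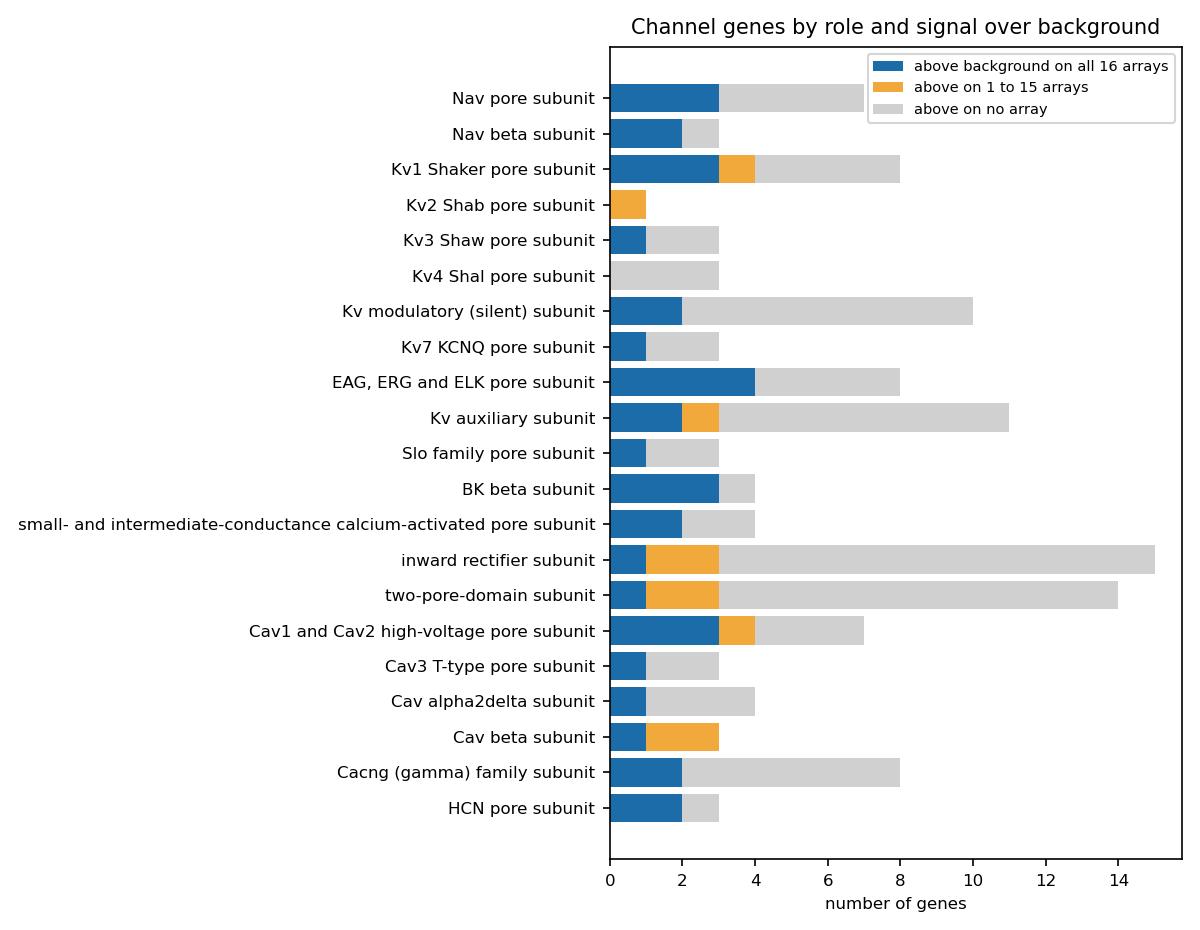
Number of channel genes (horizontal axis) in each role (rows), split by the number of arrays on which the signal exceeded the antigenomic background. In all, 36 genes were above it on all 16 arrays, 10 on 1 to 15 and 79 on none, and the inward rectifier and two-pore-domain subunits had 1 gene each above it on all arrays, of 15 and 14.

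Between the fractions, GFP+ cells of odorant mice had 5 channel genes higher (4%, against 3.57% of all gene probesets) and 6 lower (4.8%, against 7.84%). In vehicle mice 13 were higher (10.4%, against 7.76%) and 6 lower (4.8%, against 9.97%). With both treatments 5 genes were higher (Kcnmb3, Kcnn2, Cacnb1, Kcna1 and Scn4b), where 2.46% of all gene probesets were, and 5 were lower (Kcnk5, Kcnk1, Kcnn4, Kcnj13 and Kcnip3), where 6.89% were. Over the 125 genes, of which 79 never exceeded background, the share of higher calls was thus near that of all genes. That of lower calls was below it. The sort separates cells in bulk, so fewer cells of a type and less RNA per cell cannot be told apart.

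A rule added after seeing the data took the 39 channel genes whose mean over all arrays lay above background. These 39 genes were mostly higher in GFP+ cells, without most of them passing the test. Their GFP+ minus GFP- difference was positive for 29 of 39 with odorant (74.4%, median 0.23, against 64.9% and 0.0988 over the 10932 gene probesets selected the same way) and for 33 of 39 with vehicle (84.6%, median 0.414, against 65% and 0.137). Of these 39, 4 were called higher and 2 lower with odorant (10.3% and 5.13%, against 5.11% and 7.95% of the 10932), and 10 higher and 1 lower with vehicle (25.6% and 2.56%, against 12.1% and 9.8%). These counts depend on the scale. With array medians subtracted, the median over all gene probesets moved to 0.417 with odorant and to 0.445 with vehicle, where it was 0.102 and 0.0818 on the deposited scale. The calls for channel genes then became 56 higher and 5 lower with odorant (44.8% and 4%, against 34.9% and 6.84% of all gene probesets) and 68 higher and 6 lower with vehicle (54.4% and 4.8%, against 46.7% and 7.6%), while their median (0.49 and 0.51) stayed within 0.1 of that of all genes. Quantile normalization gave 7 higher and 7 lower with odorant (5.6% each, against 5.7% and 7.48% of all) and 20 higher and 6 lower with vehicle (16% and 4.8%, against 11.5% and 9.16%).

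**Figure D2:**
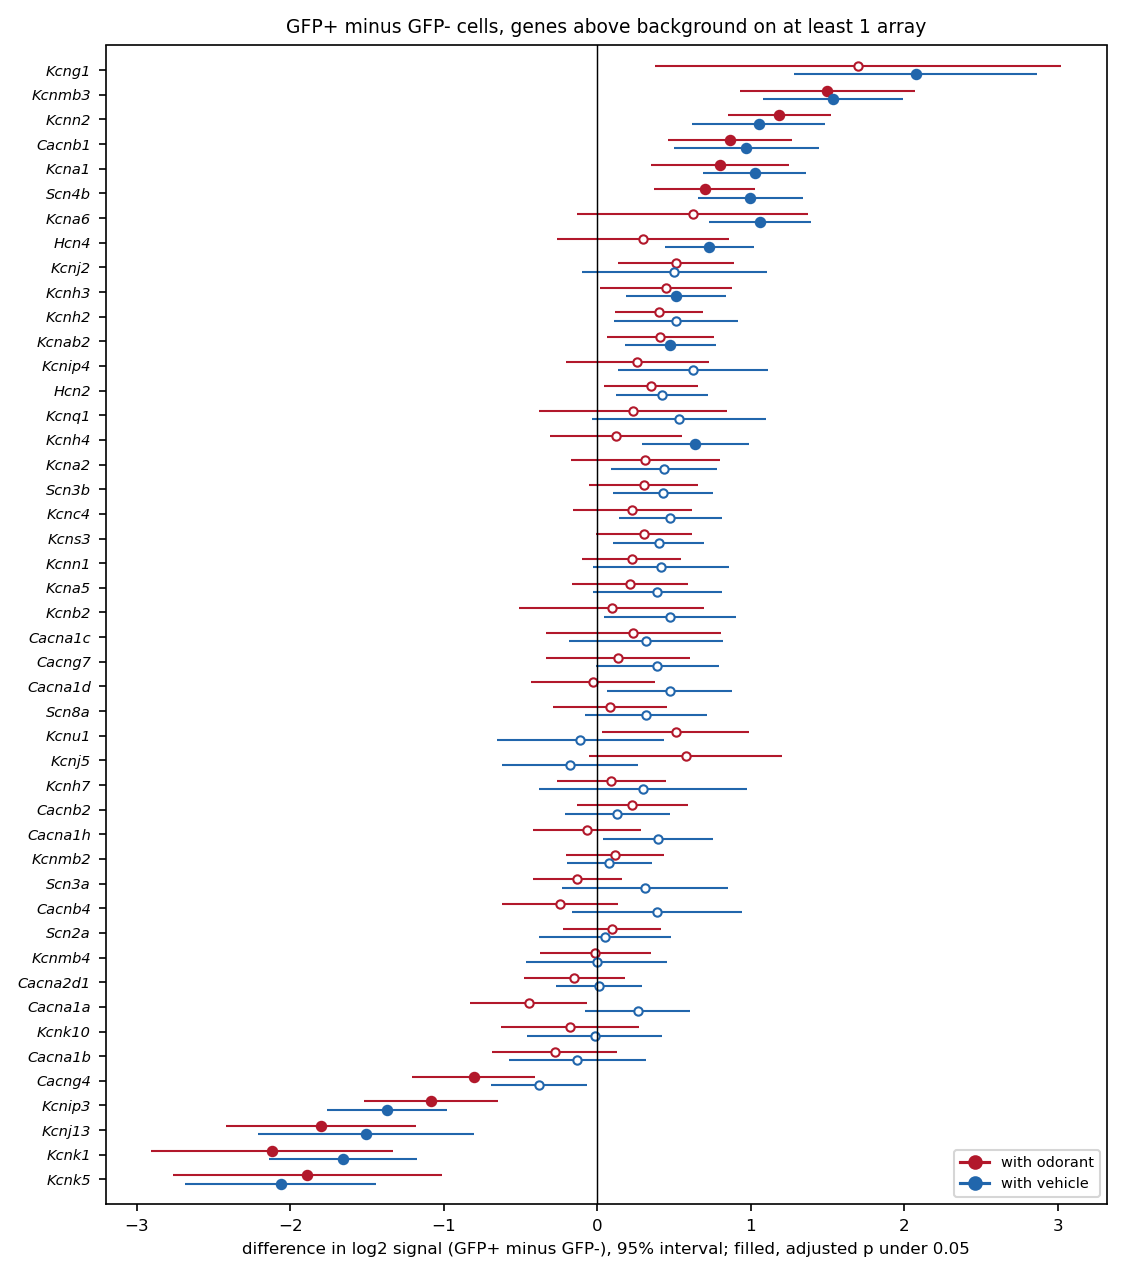
Difference in log2 signal between GFP+ and GFP- cells (horizontal axis, GFP+ minus GFP-) for the 46 channel genes above background on at least 1 array, with odorant (red) and with vehicle (blue). Bars are 95% intervals of the limma fit and filled points have an adjusted p under 0.05. Kcng1, at 1.70 with odorant and 2.08 with vehicle, lies at the top, and Kcnk5, at -1.89 and -2.06, at the bottom.

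Voltage-gated sodium channels generate the action potential. The pore subunits Scn2a, Scn3a and Scn8a, all neuronal channels, were above background on all 16 arrays. Scn2a averaged 9.32 ± 0.08 in odorant GFP+, 9.22 ± 0.18 in odorant GFP-, 9.35 ± 0.37 in vehicle GFP+ and 9.30 ± 0.17 in vehicle GFP- cells (SD, n = 4 each, as for all means below). Scn3a averaged 9.67 ± 0.099 in odorant GFP+, 9.80 ± 0.061 in odorant GFP-, 9.79 ± 0.26 in vehicle GFP+ and 9.47 ± 0.50 in vehicle GFP- cells. Scn8a averaged 9.58 ± 0.21 in odorant GFP+, 9.49 ± 0.21 in odorant GFP-, 9.55 ± 0.17 in vehicle GFP+ and 9.23 ± 0.32 in vehicle GFP- cells. None of the 3 was called between the fractions, and GFP+ and GFP- signals overlapped with both treatments. The other pore genes, Scn1a, Scn7a, Scn10a and Scn11a, were above background on no array, with group means of 3.02 to 4.33.

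The beta subunits, which steer the gating and surface level of the pore, stood differently. Scn4b, whose intracellular tail can block the open pore and so gives rise to resurgent current, lay at 15.61, 15.96, 15.66 and 15.78 in odorant GFP+ cells and 14.92, 15.29, 15.04 and 14.97 in odorant GFP- cells, and at 15.68, 15.91, 15.83 and 15.84 in vehicle GFP+ cells and 14.96, 15.08, 14.54 and 14.69 in vehicle GFP- cells. Every GFP+ signal was above every GFP- signal of the same treatment. Scn4b was higher in GFP+ cells by 0.70 (SE 0.15, adjusted p = 0.0093) with odorant and by 1.00 (SE 0.15, adjusted p = 0.0011) with vehicle, or 1.63-fold and 2-fold. Scn3b averaged 15.49 ± 0.11 in odorant GFP+, 15.19 ± 0.26 in odorant GFP-, 15.60 ± 0.15 in vehicle GFP+ and 15.17 ± 0.19 in vehicle GFP- cells. The fractions overlapped with odorant but not with vehicle, and Scn3b was called with neither treatment (adjusted p = 0.31 and 0.073). Scn2b was above background on no array (means 4.86 to 5.04).

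Among the Shaker-type potassium channels, which open near threshold and limit repetitive firing, Kcna2, Kcna5 and Kcna6 were above background throughout. Kcna6 lay at 10.76, 11.32, 10.43 and 10.43 in odorant GFP+ cells and 9.15, 10.88, 9.96 and 10.47 in odorant GFP- cells, and at 10.81, 10.53, 11.07 and 10.64 in vehicle GFP+ cells and 9.77, 9.73, 9.57 and 9.74 in vehicle GFP- cells. With odorant, GFP- replicates 2 and 4 reached the range of the GFP+ arrays, whereas with vehicle the fractions did not overlap. The difference between GFP+ and GFP- cells was 0.62 (95% interval -0.13 to 1.38, adjusted p = 0.33) with odorant, and with vehicle Kcna6 was higher in GFP+ cells by 1.06 (SE 0.15, adjusted p = 0.00062), or 2.09-fold. Kcna2 averaged 13.07 ± 0.34 in odorant GFP+, 12.75 ± 0.34 in odorant GFP-, 13.02 ± 0.11 in vehicle GFP+ and 12.59 ± 0.25 in vehicle GFP- cells. Kcna5 averaged 12.98 ± 0.27 in odorant GFP+, 12.76 ± 0.16 in odorant GFP-, 12.73 ± 0.27 in vehicle GFP+ and 12.34 ± 0.29 in vehicle GFP- cells. Neither was called between the fractions (adjusted p of 0.081 to 0.51).

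Kcna1, a channel of axons and their terminals, exceeded background on 1 array only. It lay at 6.75, 6.82, 6.0 and 6.82 in odorant GFP+ cells and 5.95, 5.84, 5.54 and 5.86 in odorant GFP- cells, and at 6.20, 6.10, 6.45 and 6.42 in vehicle GFP+ cells and 5.09, 5.13, 5.34 and 5.50 in vehicle GFP- cells. GFP+ signals were above all GFP- signals of the same treatment, but nearly all were under the background level, so no fold is given. The difference was 0.80 (SE 0.20, adjusted p = 0.026) with odorant and 1.03 (SE 0.15, adjusted p = 0.00085) with vehicle. The call with odorant was lost without GFP+ replicates 1 (adjusted p = 0.076), 2 (0.072) or 4 (0.078) or GFP- replicates 2 (0.052), 3 (0.073) or 4 (0.052). Kcna3, Kcna4, Kcna7 and Kcna10 were above background on no array (means 2.82 to 5.07).

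The remaining voltage-gated pore families were thinly represented. Kcnb2, a delayed rectifier, was above background on 2 arrays (means 5.85 to 6.32). Kcnc4, a fast-inactivating Shaw-type channel, was above it on all 16. Kcnc4 averaged 16.02 ± 0.16 in odorant GFP+, 15.79 ± 0.29 in odorant GFP-, 16.09 ± 0.14 in vehicle GFP+ and 15.61 ± 0.22 in vehicle GFP- cells, and its fractions overlapped with odorant (adjusted p = 0.49) but not with vehicle (0.054). Kcnc1 and Kcnc2 were at background throughout (2.90 to 5.53). So were all 3 Shal-type genes, whose channels carry the transient A-type current below threshold, namely Kcnd1, Kcnd2 and Kcnd3 (3.10 to 5.30). Kcnd1 nevertheless passed the test with vehicle. It lay at 5.32, 4.46, 4.08 and 4.30 in odorant GFP+ cells and 3.23, 3.71, 4.22 and 4.57 in odorant GFP- cells, and at 4.77, 5.02, 4.95 and 4.83 in vehicle GFP+ cells and 4.44, 3.55, 4.21 and 4.27 in vehicle GFP- cells. All 16 signals were under background, and the GFP+ signals of vehicle mice lay above the GFP- ones. The difference was 0.61 (SE 0.32, adjusted p = 0.31) with odorant and 0.78 (SE 0.19, adjusted p = 0.018) with vehicle, a call lost without GFP+ replicate 2 (adjusted p = 0.052).

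Silent subunits form no channel alone and change the gating of Shab-type channels. Of 10, Kcng1 and Kcns3 were above background on all arrays. Kcng1 lay at 9.59, 12.07, 10.35 and 10.96 in odorant GFP+ cells and 7.56, 10.30, 8.74 and 9.56 in odorant GFP- cells, and at 9.23, 10.49, 9.53 and 10.34 in vehicle GFP+ cells and 7.26, 8.72, 7.47 and 7.86 in vehicle GFP- cells. Its SD over the 4 pools of a group was 0.61 to 1.18, and with each treatment the pool with the highest GFP+ signal also had the highest GFP- signal (replicate 2). In every pool the GFP+ array was above the GFP- array. The difference with odorant was 1.70 (SE 0.60, adjusted p = 0.11), and with the pool as a block its SE was 0.15 and its adjusted p = 0.00026. Without GFP- replicate 2 the unblocked difference with odorant was 2.12 (adjusted p = 0.044). With vehicle the difference was 2.08 (SE 0.36, adjusted p = 0.0023), or 4.21-fold, and the fractions did not overlap. Kcns3 averaged 13.16 ± 0.16 in odorant GFP+, 12.85 ± 0.09 in odorant GFP-, 13.20 ± 0.12 in vehicle GFP+ and 12.80 ± 0.13 in vehicle GFP- cells and was called with neither treatment (adjusted p = 0.24 and 0.065). Kcnf1, Kcng2, Kcng3, Kcng4, Kcns1, Kcns2, Kcnv1 and Kcnv2 were at background throughout (2.48 to 4.59).

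Of the KCNQ channels, which carry slow currents that damp excitability, Kcnq1, known from heart and epithelia, was above background on all arrays. Kcnq1 averaged 10.76 ± 0.33 in odorant GFP+, 10.53 ± 0.58 in odorant GFP-, 10.92 ± 0.43 in vehicle GFP+ and 10.39 ± 0.41 in vehicle GFP- cells, with overlapping fractions. Kcnq3 and Kcnq5, which are neuronal, were at background throughout (4.70 to 5.48).

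The EAG, ERG and ELK family had 4 of 8 genes above background on all arrays. Kcnh4, an ELK channel that opens at negative potentials, lay at 14.66, 14.96, 14.74 and 14.56 in odorant GFP+ cells and 14.10, 14.96, 14.68 and 14.69 in odorant GFP- cells, and at 14.69, 14.71, 14.79 and 15.10 in vehicle GFP+ cells and 14.14, 14.48, 14.07 and 14.02 in vehicle GFP- cells. In odorant mice the fractions overlapped, with GFP- replicate 1 below the other GFP- arrays. The GFP+ signals of vehicle mice were all above the GFP- ones. The difference was 0.12 (SE 0.19, adjusted p = 0.76) with odorant, which turned to -0.0465 without GFP- replicate 1, and 0.64 (SE 0.16, adjusted p = 0.018) with vehicle, a call lost without GFP+ replicate 4 (adjusted p = 0.053).

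Its relative Kcnh3 averaged 11.09 ± 0.35 in odorant GFP+, 10.64 ± 0.19 in odorant GFP-, 11.36 ± 0.18 in vehicle GFP+ and 10.85 ± 0.16 in vehicle GFP- cells. It was higher with vehicle by 0.51 (SE 0.15, adjusted p = 0.036), a call lost without any 1 of 7 of the 8 arrays (adjusted p of 0.054 to 0.10; GFP+ replicate 4 was the exception) and after quantile normalization (0.053). Kcnh2, an ERG channel that closes slowly and steadies the resting potential, lay at 10.87, 10.74, 10.73 and 10.73 in odorant GFP+ cells and 10.29, 10.44, 10.43 and 10.31 in odorant GFP- cells, and at 11.28, 11.30, 10.92 and 10.71 in vehicle GFP+ cells and 10.85, 10.33, 10.62 and 10.36 in vehicle GFP- cells. Its GFP+ signals were above the GFP- ones with odorant and overlapped them with vehicle, and the differences of 0.40 (SE 0.13, adjusted p = 0.079) and 0.51 (SE 0.18, adjusted p = 0.082) were not called. Kcnh7 averaged 7.61 ± 0.21 in odorant GFP+, 7.52 ± 0.18 in odorant GFP-, 7.80 ± 0.52 in vehicle GFP+ and 7.50 ± 0.53 in vehicle GFP- cells. Kcnh1, Kcnh5, Kcnh6 and Kcnh8 were at background throughout (3.43 to 5.24).

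Of the cytoplasmic and membrane partners of these pores, Kcnab2 and Kcnip4 were above background on all arrays. Kcnab2, a beta subunit of Shaker-type channels, averaged 16.07 ± 0.12 in odorant GFP+, 15.65 ± 0.24 in odorant GFP-, 16.21 ± 0.11 in vehicle GFP+ and 15.73 ± 0.14 in vehicle GFP- cells. The GFP+ signals were above all GFP- signals with both treatments, and the difference was 0.41 (SE 0.16, adjusted p = 0.15) with odorant and 0.48 (SE 0.13, adjusted p = 0.032) with vehicle. The vehicle call did not hold with the pool as a block (adjusted p = 0.056) or without any 1 of 7 arrays (0.051 to 0.081, GFP- replicate 2 being the exception). Kcnip4, a calcium sensor of Shal-type channels, averaged 13.89 ± 0.11 in odorant GFP+, 13.62 ± 0.44 in odorant GFP-, 13.92 ± 0.29 in vehicle GFP+ and 13.29 ± 0.40 in vehicle GFP- cells, with overlapping fractions.

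Kcnip3, the calcium sensor also known as the transcriptional repressor DREAM, exceeded background on 1 array, a GFP- array of vehicle mice. It lay at 4.78, 5.29, 5.57 and 5.39 in odorant GFP+ cells and 6.01, 6.54, 6.42 and 6.40 in odorant GFP- cells, and at 5.01, 5.20, 5.25 and 4.95 in vehicle GFP+ cells and 6.40, 6.06, 6.61 and 6.81 in vehicle GFP- cells. All GFP+ signals were below all GFP- signals. The difference was -1.08 (SE 0.20, adjusted p = 0.0034) with odorant and -1.37 (SE 0.18, adjusted p = 0.00034) with vehicle, with nearly every signal under the background level. Kcnab1, Kcnab3, Kcne1, Kcne2, Kcne3, Kcne4, Kcnip1 and Kcnip2 were at background throughout (2.67 to 4.90).

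Calcium-activated potassium channels link calcium entry to repolarization. Kcnmb3, a beta subunit of the large-conductance (BK) channel, had the largest difference of the 5 genes higher with both treatments. It lay at 14.49, 15.40, 14.78 and 15.24 in odorant GFP+ cells and 12.93, 14.01, 13.53 and 13.45 in odorant GFP- cells, and at 14.44, 14.99, 14.44 and 14.74 in vehicle GFP+ cells and 12.86, 13.50, 13.33 and 12.77 in vehicle GFP- cells. Every GFP+ signal was above every GFP- signal of either treatment. The difference was 1.50 (SE 0.26, adjusted p = 0.0024) with odorant and 1.54 (SE 0.21, adjusted p = 0.00043) with vehicle, or 2.83-fold and 2.9-fold. The other beta subunits did not share it. Kcnmb2 averaged 12.97 ± 0.12 in odorant GFP+, 12.85 ± 0.16 in odorant GFP-, 13.02 ± 0.078 in vehicle GFP+ and 12.94 ± 0.094 in vehicle GFP- cells. Kcnmb4, the neuronal beta subunit, averaged 8.23 ± 0.23 in odorant GFP+, 8.24 ± 0.18 in odorant GFP-, 8.24 ± 0.40 in vehicle GFP+ and 8.24 ± 0.21 in vehicle GFP- cells. Both overlapped between the fractions, with differences of -0.011 to 0.12, and Kcnmb1 was at background throughout (5.50 to 5.79).

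Kcnn2, a small-conductance channel that contributes to the afterhyperpolarization following spikes, lay at 13.31, 13.11, 13.20 and 13.02 in odorant GFP+ cells and 11.85, 11.86, 12.27 and 11.91 in odorant GFP- cells, and at 13.16, 13.03, 13.37 and 12.81 in vehicle GFP+ cells and 12.05, 11.98, 12.48 and 11.65 in vehicle GFP- cells. The fractions did not overlap. Kcnn2 was higher in GFP+ cells by 1.19 (SE 0.15, adjusted p = 0.00028) with odorant and by 1.05 (SE 0.20, adjusted p = 0.0037) with vehicle, or 2.27-fold and 2.07-fold. Kcnn1, of the same type, averaged 12.05 ± 0.13 in odorant GFP+, 11.83 ± 0.16 in odorant GFP-, 12.19 ± 0.28 in vehicle GFP+ and 11.78 ± 0.33 in vehicle GFP- cells and was called with neither treatment.

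Kcnn4, the intermediate-conductance channel of blood cells and epithelia, was under background on all 16 arrays. It lay at 3.48, 4.40, 3.54 and 3.64 in odorant GFP+ cells and 5.86, 5.37, 5.26 and 4.89 in odorant GFP- cells, and at 3.29, 3.66, 4.01 and 3.79 in vehicle GFP+ cells and 5.16, 6.02, 5.96 and 4.77 in vehicle GFP- cells. GFP+ signals were below all GFP- signals, and the difference was -1.58 (SE 0.25, adjusted p = 0.0014) with odorant and -1.79 (SE 0.28, adjusted p = 0.0014) with vehicle. Kcnn3 was at background throughout (4.90 to 5.45). Of the Slo family, Kcnu1, a pH-sensitive channel known from sperm, was above background on all arrays. Kcnu1 averaged 7.66 ± 0.36 in odorant GFP+, 7.15 ± 0.32 in odorant GFP-, 7.70 ± 0.36 in vehicle GFP+ and 7.81 ± 0.44 in vehicle GFP- cells, with overlapping fractions. Kcnt1 and Kcnt2, sodium-activated channels, were above it on none (3.07 to 5.75).

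Of 15 inward rectifiers, which hold the resting potential near the potassium equilibrium, Kcnj2 was above background on all arrays. Kcnj2 averaged 10.98 ± 0.29 in odorant GFP+, 10.47 ± 0.12 in odorant GFP-, 10.98 ± 0.36 in vehicle GFP+ and 10.47 ± 0.53 in vehicle GFP- cells. Its fractions overlapped (adjusted p = 0.09 with odorant and 0.24 with vehicle). Kcnj5, a G protein-gated rectifier, was above background on 5 arrays and averaged 6.86 ± 0.54 in odorant GFP+, 6.28 ± 0.42 in odorant GFP-, 6.46 ± 0.36 in vehicle GFP+ and 6.64 ± 0.24 in vehicle GFP- cells. Kcnj5 was called with odorant only with the pool as a block (difference 0.58, adjusted p = 0.045, against 0.27 without it).

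Kcnj13, a rectifier of ion-transporting epithelia, exceeded background on 5 arrays, all of GFP- cells. It lay at 4.99, 5.79, 5.03 and 4.83 in odorant GFP+ cells and 7.71, 6.54, 6.67 and 6.93 in odorant GFP- cells, and at 4.67, 5.62, 5.53 and 5.83 in vehicle GFP+ cells and 6.83, 6.65, 6.43 and 7.77 in vehicle GFP- cells. GFP+ signals were all under background and below every GFP- signal. The difference was -1.80 (SE 0.28, adjusted p = 0.0012) with odorant and -1.51 (SE 0.32, adjusted p = 0.0079) with vehicle, which amounts to at least 1.15-fold and at least 1.2-fold lower, since the GFP+ side has only a bound. Kcnj1, Kcnj3, Kcnj4, Kcnj6, Kcnj8, Kcnj9, Kcnj10, Kcnj11, Kcnj12, Kcnj14, Kcnj15 and Kcnj16 were at background throughout (2.61 to 5.14).

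Two-pore-domain subunits carry background potassium current. Kcnk1 lay at 7.27, 6.13, 5.51 and 6.78 in odorant GFP+ cells and 9.05, 8.52, 7.93 and 8.68 in odorant GFP- cells, and at 6.71, 7.08, 6.52 and 6.33 in vehicle GFP+ cells and 8.37, 8.27, 7.87 and 8.75 in vehicle GFP- cells. All GFP- signals were above background, as were 4 of 8 GFP+ signals, and no GFP+ signal reached a GFP- signal. The difference was -2.12 (SE 0.36, adjusted p = 0.002) with odorant and -1.66 (SE 0.22, adjusted p = 0.00037) with vehicle, or at least 3.17-fold and 3.15-fold lower. Kcnk10, a channel opened by stretch and lipids, averaged 14.55 ± 0.27 in odorant GFP+, 14.73 ± 0.35 in odorant GFP-, 14.44 ± 0.21 in vehicle GFP+ and 14.46 ± 0.37 in vehicle GFP- cells. It was above background on all arrays, with overlapping fractions.

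Kcnk5, an alkaline-activated channel known from kidney epithelium, exceeded background on 1 GFP- array of odorant mice. It lay at 4.52, 3.41, 3.39 and 4.15 in odorant GFP+ cells and 6.90, 5.12, 5.14 and 5.86 in odorant GFP- cells, and at 3.26, 3.29, 3.98 and 3.85 in vehicle GFP+ cells and 5.76, 5.80, 4.87 and 6.19 in vehicle GFP- cells. All GFP+ signals were below all GFP- signals of the same treatment, and the difference was -1.89 (SE 0.40, adjusted p = 0.0084) with odorant and -2.06 (SE 0.28, adjusted p = 0.00049) with vehicle. Kcnk12 and Kcnk6 were called with vehicle while under background on every array. Kcnk12 averaged 4.34 ± 0.12 in odorant GFP+, 3.92 ± 0.17 in odorant GFP-, 4.47 ± 0.25 in vehicle GFP+ and 3.73 ± 0.11 in vehicle GFP- cells, and Kcnk6 averaged 4.47 ± 0.20 in odorant GFP+, 4.62 ± 0.24 in odorant GFP-, 4.06 ± 0.27 in vehicle GFP+ and 5.03 ± 0.17 in vehicle GFP- cells. Kcnk12 differed by 0.42 (SE 0.15, adjusted p = 0.11) with odorant and 0.74 (SE 0.16, adjusted p = 0.0079) with vehicle, and Kcnk6 by -0.15 (SE 0.17, adjusted p = 0.66) with odorant and -0.97 (SE 0.17, adjusted p = 0.0023) with vehicle. Kcnk2, Kcnk3, Kcnk4, Kcnk7, Kcnk9, Kcnk13, Kcnk15, Kcnk16 and Kcnk18 were also at background throughout (2.93 to 5.78).

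**Figure D3:**
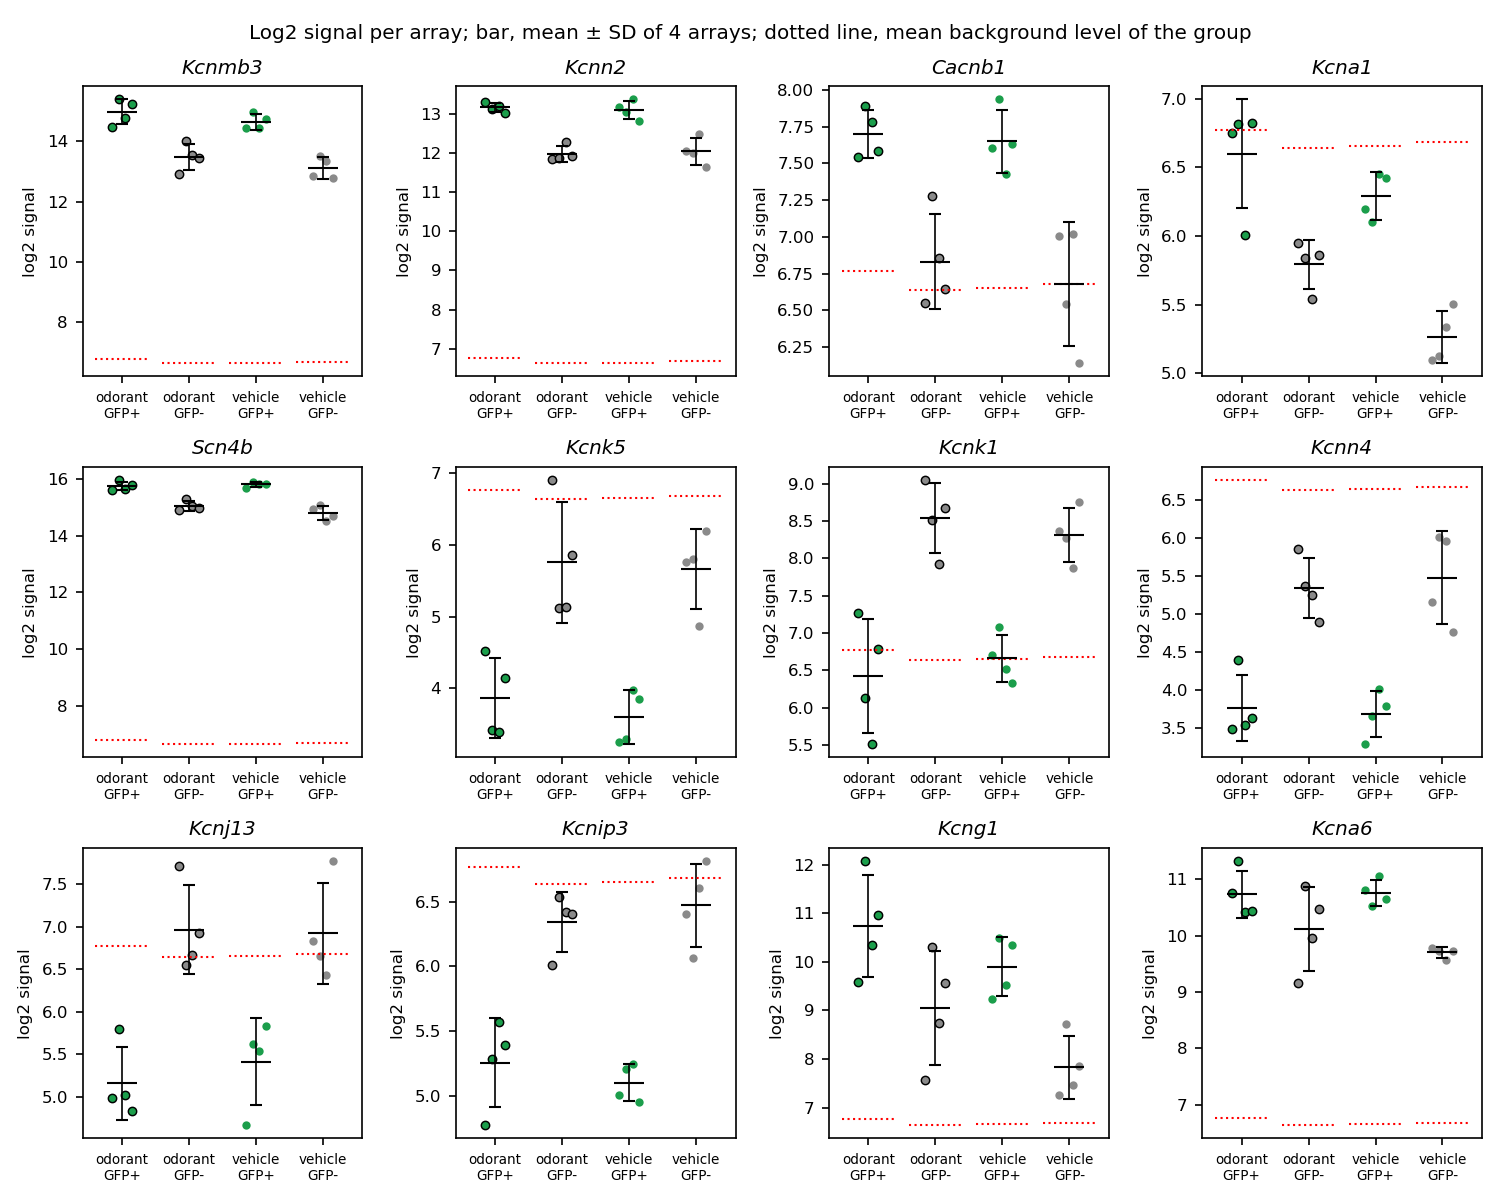
Log2 signal (vertical axis) on each array for the 10 genes called in the same direction with both treatments and for Kcng1 and Kcna6, by group. Points are arrays, bars are mean ± SD of 4 arrays and the dotted line is the mean background level of the group. The Kcnmb3, Kcnn2 and Scn4b points lie far above the dotted line in all 4 groups, whereas all those of Kcnn4 lie under it.

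Calcium channel pore subunits of the high-voltage class had 3 of 7 genes above background on all arrays. Cacna1b, the N-type channel of axon terminals, averaged 14.31 ± 0.22 in odorant GFP+, 14.59 ± 0.29 in odorant GFP-, 14.43 ± 0.069 in vehicle GFP+ and 14.56 ± 0.43 in vehicle GFP- cells. Cacna1c, an L-type channel, averaged 8.16 ± 0.44 in odorant GFP+, 7.93 ± 0.41 in odorant GFP-, 7.88 ± 0.33 in vehicle GFP+ and 7.57 ± 0.39 in vehicle GFP- cells. Cacna1d, the other L-type gene above background, lay at 11.46, 11.66, 11.48 and 11.20 in odorant GFP+ cells and 11.03, 11.68, 11.52 and 11.67 in odorant GFP- cells, and at 11.61, 11.75, 11.31 and 11.80 in vehicle GFP+ cells and 11.60, 11.03, 10.94 and 11.02 in vehicle GFP- cells. None of the 3 was called between the fractions, and their fractions overlapped with both treatments.

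Cacna1a, the P/Q-type channel, was above background on 11 arrays: all 4 GFP- arrays of odorant mice, all 4 GFP+ and 3 of 4 GFP- arrays of vehicle mice, and no GFP+ array of odorant mice. Cacna1e, Cacna1f and Cacna1s were above it on none (3.16 to 4.76). Cacna1h, a T-type channel that opens at negative potentials, lay at 13.31, 13.39, 13.32 and 13.14 in odorant GFP+ cells and 13.07, 13.67, 13.32 and 13.37 in odorant GFP- cells, and at 13.51, 13.57, 13.81 and 13.44 in vehicle GFP+ cells and 13.33, 13.12, 13.43 and 12.87 in vehicle GFP- cells. Its fractions overlapped with odorant and not with vehicle, where the difference was 0.40 (SE 0.16, adjusted p = 0.13). The other T-type genes, Cacna1g and Cacna1i, were at background throughout (3.76 to 4.26).

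Among auxiliary calcium channel subunits, Cacnb1, of the beta class that brings the pore to the membrane, was above background on 12 arrays. It lay at 7.54, 7.89, 7.78 and 7.59 in odorant GFP+ cells and 6.55, 7.28, 6.86 and 6.65 in odorant GFP- cells, and at 7.60, 7.94, 7.43 and 7.63 in vehicle GFP+ cells and 7.01, 6.55, 7.02 and 6.14 in vehicle GFP- cells. All GFP+ signals were above background and above every GFP- signal, of which 4 of 8 exceeded background. The difference was 0.87 (SE 0.18, adjusted p = 0.0087) with odorant and 0.97 (SE 0.21, adjusted p = 0.0099) with vehicle, or 1.82-fold and at least 1.73-fold. Cacnb2 averaged 14.61 ± 0.15 in odorant GFP+, 14.38 ± 0.24 in odorant GFP-, 14.47 ± 0.10 in vehicle GFP+ and 14.34 ± 0.25 in vehicle GFP- cells and overlapped between the fractions. Cacnb4 was above background on 1 array (means 5.65 to 6.28).

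Cacna2d1, an extracellular subunit bound by gabapentin, averaged 10.26 ± 0.21 in odorant GFP+, 10.41 ± 0.065 in odorant GFP-, 10.37 ± 0.027 in vehicle GFP+ and 10.35 ± 0.13 in vehicle GFP- cells. Cacna2d2, Cacna2d3 and Cacna2d4 were at background throughout (3.42 to 4.79). Of the Cacng family, most members of which regulate AMPA-type glutamate receptors, Cacng4 and Cacng7 were above background on all arrays. Cacng4 averaged 10.67 ± 0.18 in odorant GFP+, 11.48 ± 0.31 in odorant GFP-, 10.88 ± 0.20 in vehicle GFP+ and 11.26 ± 0.06 in vehicle GFP- cells. Its GFP+ signals were below all GFP- signals with both treatments, and the difference was -0.81 (SE 0.18, adjusted p = 0.013) with odorant, or 1.75-fold lower, and -0.38 (SE 0.14, adjusted p = 0.094) with vehicle. With array medians subtracted the difference with odorant was -0.49 (adjusted p = 0.064). Cacng7 averaged 7.85 ± 0.15 in odorant GFP+, 7.71 ± 0.44 in odorant GFP-, 7.84 ± 0.28 in vehicle GFP+ and 7.44 ± 0.24 in vehicle GFP- cells, and Cacng1, Cacng2, Cacng3, Cacng5, Cacng6 and Cacng8 were at background throughout (3.36 to 5.95).

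Hyperpolarization-activated channels had 2 of 3 genes above background on all arrays. Hcn4, the slow pacemaker channel, lay at 10.80, 11.29, 10.74 and 10.74 in odorant GFP+ cells and 9.96, 11.25, 10.48 and 10.70 in odorant GFP- cells, and at 11.04, 11.27, 10.99 and 11.04 in vehicle GFP+ cells and 10.39, 10.47, 10.31 and 10.23 in vehicle GFP- cells. With odorant, GFP- replicate 2 lay among the GFP+ arrays, and with vehicle all GFP+ signals were above all GFP- signals. Hcn4 differed by 0.30 (95% interval -0.27 to 0.86, adjusted p = 0.55) with odorant and was higher in GFP+ cells by 0.73 (SE 0.13, adjusted p = 0.003) with vehicle, or 1.66-fold. Hcn2 averaged 14.22 ± 0.084 in odorant GFP+, 13.87 ± 0.15 in odorant GFP-, 14.20 ± 0.17 in vehicle GFP+ and 13.78 ± 0.064 in vehicle GFP- cells, with no overlap between fractions and adjusted p values of 0.16 and 0.054. Hcn3 was at background throughout (3.13 to 3.73).

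Promoter windows were read for the 10 genes called in the same direction with both treatments. RefSeq windows (GRCm38.p6, 250 bases before to 50 after a transcription start) were matched by symbol for 95 of the 125 genes (130 windows) and for 8 of those 10. The windows of the 3 higher genes with a match, and of the 2 lower genes that exceeded background on at least 5 arrays, are printed 5′ to 3′ on the gene's strand: Kcnmb3 at chr3:32491920-32492219 (minus strand), Scn4b at chr9:45138374-45138673 (plus strand), the window of Cacnb1 that holds GC boxes at chr11:98022578-98022877 (minus strand), Kcnk1 at chr8:125994852-125995151 (plus strand) and Kcnj13 at chr1:87394680-87394979 (minus strand). Capitals mark matches to the motifs described after them.
Kcnmb3 promoter: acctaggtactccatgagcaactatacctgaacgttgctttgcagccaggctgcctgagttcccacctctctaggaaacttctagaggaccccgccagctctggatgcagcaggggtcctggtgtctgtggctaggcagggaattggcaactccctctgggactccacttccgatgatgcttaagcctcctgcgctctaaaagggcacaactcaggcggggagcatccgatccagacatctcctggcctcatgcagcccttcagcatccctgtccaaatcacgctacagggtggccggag
Scn4b promoter: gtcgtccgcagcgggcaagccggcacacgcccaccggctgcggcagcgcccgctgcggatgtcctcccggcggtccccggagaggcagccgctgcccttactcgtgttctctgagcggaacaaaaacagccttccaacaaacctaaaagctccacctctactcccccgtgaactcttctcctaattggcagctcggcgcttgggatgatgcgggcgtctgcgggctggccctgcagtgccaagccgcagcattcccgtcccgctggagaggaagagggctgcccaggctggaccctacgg
Cacnb1 promoter: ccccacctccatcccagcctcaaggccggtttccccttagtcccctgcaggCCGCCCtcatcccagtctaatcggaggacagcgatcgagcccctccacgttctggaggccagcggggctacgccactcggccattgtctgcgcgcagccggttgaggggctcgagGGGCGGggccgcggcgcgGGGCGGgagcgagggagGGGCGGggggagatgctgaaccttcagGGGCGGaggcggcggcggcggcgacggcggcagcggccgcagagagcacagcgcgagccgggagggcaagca
Kcnk1 promoter: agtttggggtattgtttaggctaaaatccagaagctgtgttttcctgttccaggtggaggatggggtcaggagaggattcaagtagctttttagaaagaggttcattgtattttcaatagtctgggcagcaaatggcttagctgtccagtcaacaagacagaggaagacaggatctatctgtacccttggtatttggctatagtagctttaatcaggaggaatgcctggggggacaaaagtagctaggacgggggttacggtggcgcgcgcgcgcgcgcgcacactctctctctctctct
Kcnj13 promoter: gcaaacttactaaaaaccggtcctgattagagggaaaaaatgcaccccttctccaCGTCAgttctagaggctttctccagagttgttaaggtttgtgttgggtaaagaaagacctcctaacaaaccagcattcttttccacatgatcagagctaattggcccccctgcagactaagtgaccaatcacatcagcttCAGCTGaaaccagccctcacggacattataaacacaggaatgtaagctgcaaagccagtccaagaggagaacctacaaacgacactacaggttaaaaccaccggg

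The motifs were searched on both strands: the cyclic AMP response element TGACGTCA, its half-site TGACG, which lies inside the full element, the E-box CAGCTG, the GC box GGGCGG and the palindrome TCCCNNGGGA bound by EBF factors. The full cyclic AMP element was in 0 of 130 channel gene windows and in 1.79% of all 32851 windows of this length, and the half-site in 17.7% and 20.8%. The E-box was in 27.7% of channel gene windows and in 16.3% of all, the GC box in 45.4% and 35.7%, and the EBF palindrome in 0 and 0.904%. Channel gene windows had a median GC content of 58% and 9 CG dinucleotides, against 52.7% and 7 over all windows. Of the printed windows, that of Cacnb1 holds 5 GC boxes and that of Kcnj13 holds 1 half-site and 1 E-box, while those of Kcnmb3, Scn4b and Kcnk1 hold none of these letters. The Cacnb1 window was printed for its GC boxes, and the other window of this gene holds none of the motifs. Among the lower genes without a printed window, that of Kcnk5 holds 3 GC boxes and that of Kcnn4 holds 1. The windows of Kcnip3 hold 2, 1 and 0 GC boxes, the last with 1 E-box. A match is a description of the letters only.

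Between treatments, no channel gene was called in GFP+ cells, in GFP- cells or in the interaction, that is, in how far the odorant effect on GFP+ cells exceeds the one on GFP- cells. Over all gene probesets limma also called 0 (0%) in each of these 3 comparisons. At an unadjusted p under 0.05 there were 4 channel genes in GFP+ cells (3.2%, against 3.82% of all), 11 in GFP- cells (8.8%, against 6.84%) and 7 in the interaction (5.6%, against 4.92%). These shares are close to those of all genes. The 95% interval of the odorant effect lay within 1 log2 unit of 0 for 121 of 125 channel genes in GFP+ cells and 119 in GFP- cells, and for 37 and 36 of the 39 with a mean above background. For the interaction it did so for 96 of 125 and 28 of 39.

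In GFP+ cells Cacna1a, the P/Q-type calcium channel, had the smallest p of the 125 genes. It lay at 6.56, 6.61, 6.60 and 6.11 with odorant and at 7.28, 7.08, 7.40 and 7.14 with vehicle. All odorant signals were below all vehicle signals and under the background of their arrays, whereas all vehicle signals were above it. The background levels were 6.87, 6.85, 6.61 and 6.74 on the odorant arrays and 6.64, 6.67, 6.57 and 6.73 on the vehicle arrays. The signal of odorant replicate 3 lay only just under its level. The difference was -0.75 (95% interval -1.10 to -0.41, adjusted p = 1). In GFP- cells it lay at 6.71, 7.08, 7.12 and 6.76 with odorant and 7.19, 7.03, 6.99 and 6.64 with vehicle, with overlap and a difference of -0.045 (95% interval -0.43 to 0.34, adjusted p = 0.96). The interaction was -0.71 (95% interval -1.19 to -0.23, adjusted p = 0.96). Its GFP+ minus GFP- difference was thus -0.45 (SE 0.17, adjusted p = 0.15) with odorant and 0.26 (SE 0.15, adjusted p = 0.28) with vehicle, neither of them called.

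Of the other 3 genes with an unadjusted p under 0.05, Kcne3, Kcnk6 and Kcnj1, every signal was under background. Among genes above background on all 4 arrays of at least 1 group, Cacna1h, Kcng1 and Kcnh2 came next by p. Cacna1h was lower on all 4 odorant arrays than on any vehicle array, with a difference of -0.29 (95% interval -0.60 to 0.0094, adjusted p = 1). Kcng1 differed by 0.84 (95% interval -0.19 to 1.88, adjusted p = 1) and Kcnh2 by -0.29 (95% interval -0.64 to 0.066, adjusted p = 1), each with overlapping treatments.

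In GFP- cells 8 of the 11 genes with an unadjusted p under 0.05 were above background on 1 array at most, among them Cacnb4 and Kcna1 with the smallest p of all. Among genes above background on all 4 arrays of at least 1 group, the smallest p belonged to Kcnu1, Kcna5, Kcng1 and Kcnh4. Kcnu1 lay at 7.51, 6.79, 7.31 and 7.00 with odorant and 8.09, 7.56, 7.32 and 8.26 with vehicle. Kcna5 lay at 12.52, 12.85, 12.79 and 12.88 with odorant and 12.33, 12.45, 11.94 and 12.63 with vehicle. Kcnu1 differed by -0.66 (95% interval -1.18 to -0.13, adjusted p = 0.71), and Kcna5 differed by 0.42 (95% interval 0.029 to 0.82, adjusted p = 0.71). Kcng1 differed by 1.22 (95% interval 0.081 to 2.35, adjusted p = 0.71) and Kcnh4 by 0.43 (95% interval -0.017 to 0.87, adjusted p = 0.74). Signals of odorant and vehicle mice overlapped for all 4.

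In the interaction Kcnk6, under background on every array, had the smallest p, at 0.82 (95% interval 0.33 to 1.32, adjusted p = 0.96). Among genes above background on all 4 arrays of at least 1 group, Cacna1a was followed by Cacna1h at -0.46 (95% interval -0.93 to 0.0019, adjusted p = 0.96), Kcnh4 at -0.52 (95% interval -1.05 to 0.011, adjusted p = 0.96) and Cacna1d at -0.50 (95% interval -1.05 to 0.052, adjusted p = 0.96). Of the 39 channel genes with a mean above background, 6 (15.4%) had a positive interaction (median -0.161). The share was 43.8% of all gene probesets selected the same way (median -0.0395). The odorant effect was positive for 13 of the 39 in GFP+ cells (33.3%, against 43.7%) and for 30 in GFP- cells (76.9%, against 52.9%). The values of these 39 genes share the same 16 arrays and are given as a description.

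**Figure D4:**
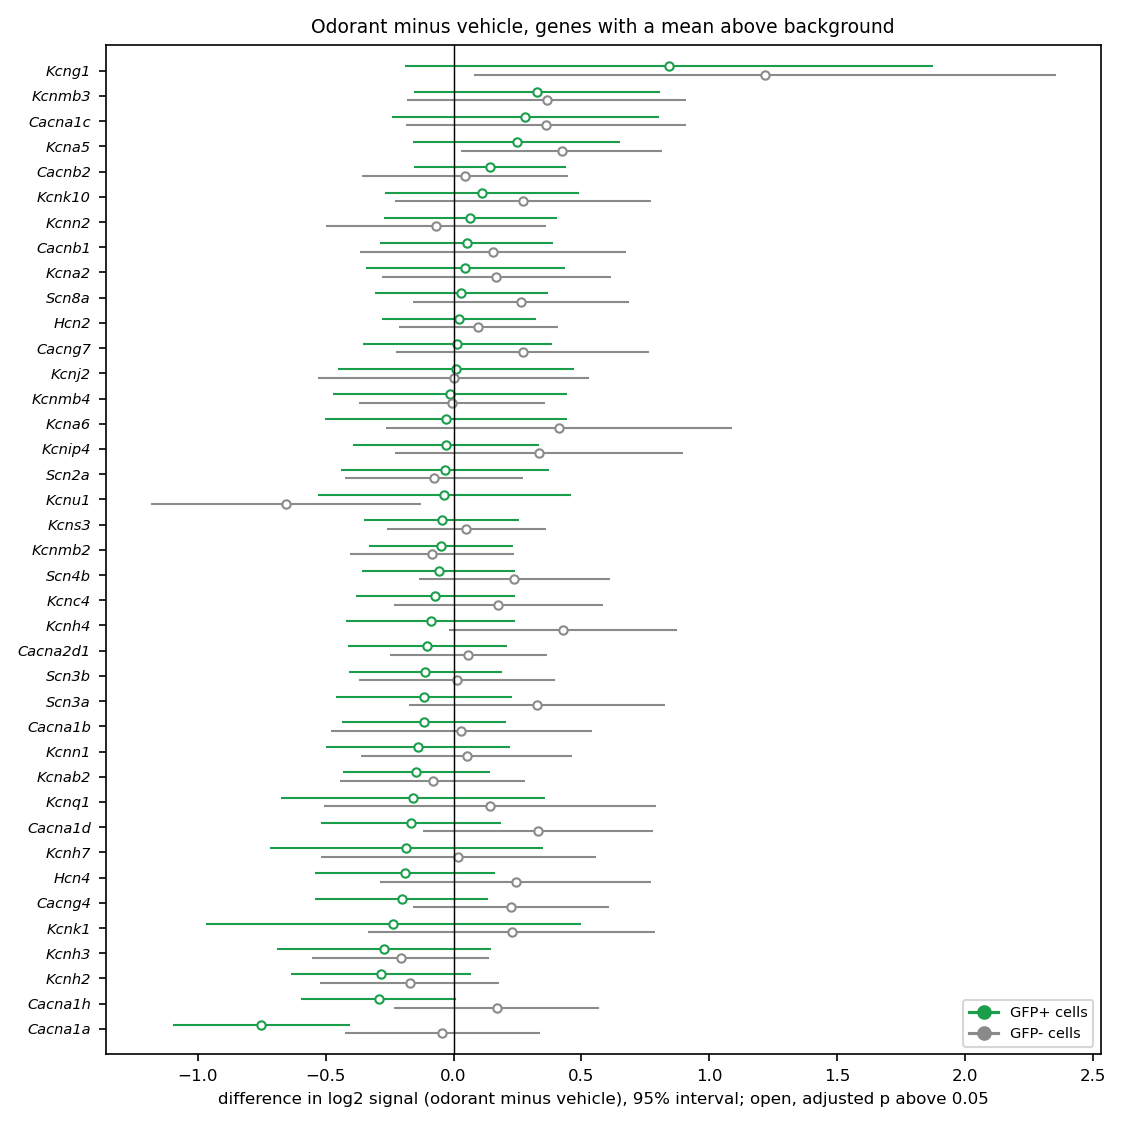
Difference in log2 signal between odorant and vehicle mice (horizontal axis, odorant minus vehicle) for the 39 channel genes with a mean above background, in GFP+ and GFP- cells. Bars are 95% intervals of the limma fit, and open points have an adjusted p above 0.05. Every point is open, and Kcng1, at 0.84 in GFP+ and 1.22 in GFP- cells, and Cacna1a, at -0.75 in GFP+ cells, lie farthest from 0.

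Other genes of electrical signalling were taken from a list of 60, of which 55 were measured. For this and the lists below, the shares of all gene probesets called higher were 3.57% with odorant, 7.76% with vehicle and 2.46% with both. The shares called lower were 7.84%, 9.97% and 6.89%. Of the 6 genes of odor transduction, Ano2, the chloride channel, and Slc24a4, the sodium-calcium exchanger that ends the response, were higher in GFP+ cells with vehicle. Ano2 differed by 0.48 (SE 0.14, adjusted p = 0.049) with odorant, a call lost in 8 of 14 alternative settings (adjusted p up to 0.13), and by 0.57 (SE 0.14, adjusted p = 0.015) with vehicle. Slc24a4 differed by 0.41 (SE 0.16, adjusted p = 0.14) with odorant and 0.61 (SE 0.13, adjusted p = 0.0072) with vehicle. The cyclic nucleotide-gated channel subunit Cnga2 differed by 0.17 (SE 0.14, adjusted p = 0.52) with odorant and -0.052 (SE 0.13, adjusted p = 0.82) with vehicle, and the other 3 were not called either.

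Of 10 potassium channel partners outside the symbol rule, 2 were higher with both treatments. Amigo1, a partner of Shab-type channels, differed by 0.61 (SE 0.14, adjusted p = 0.013) with odorant and 0.61 (SE 0.16, adjusted p = 0.022) with vehicle. The vehicle call was lost without GFP+ replicates 1 or 2 or GFP- replicate 1 (adjusted p up to 0.063). Kcnrg, a regulator of potassium channel assembly, differed by 0.88 (SE 0.18, adjusted p = 0.0064) with odorant and 0.79 (SE 0.17, adjusted p = 0.01) with vehicle. Of 12 genes of the axon initial segment and channel clustering, 1 was lower with vehicle, the adhesion molecule Nrcam, at -0.75 (SE 0.18, adjusted p = 0.014), with every signal under background, a call lost with array medians subtracted (adjusted p = 0.1).

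Of the 4 leak channel genes measured, Unc79 and Nalcn, parts of the sodium leak channel complex, were higher with vehicle, at 0.66 (SE 0.20, adjusted p = 0.042) and 0.69 (SE 0.20, adjusted p = 0.04). Each of these calls was lost in 8 alternative settings (adjusted p up to 0.11 and 0.1), and Nalcn was under background on every array. Of 11 other voltage-gated or proton channels, the endolysosomal channel Tpcn1 was higher with vehicle by 1.29 (SE 0.16, adjusted p = 0.00027) and differed by 0.31 (SE 0.25, adjusted p = 0.53) with odorant. The proton channel Hvcn1, known from phagocytes, was lower with both treatments, at -1.04 (SE 0.27, adjusted p = 0.03) and -1.23 (SE 0.36, adjusted p = 0.041), again with every signal under background and with calls lost in 7 of 13 and 8 of 13 settings. Of 9 chloride channel and transporter genes, Clcn6, an endosomal exchanger, was higher with vehicle by 0.62 (SE 0.14, adjusted p = 0.011). None of the 3 sodium pump genes was called, and none of the 55 genes was called between treatments or in the interaction.

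Of the marker lists for other cell types, some moved with the sort and others did not. With odorant and with vehicle, 6 and 6 of 6 neutrophil markers were lower in GFP+ cells. Their mean per array was 5.08 to 5.68 in GFP+ and 13 to 15.4 in GFP- cells with odorant, and 5.29 to 6.83 in GFP+ and 13.1 to 15.6 in GFP- cells with vehicle. S100a9, Camp and Ltf were at background on all GFP+ arrays. Likewise 6 and 7 of 7 markers of immature sensory neurons were lower (list mean 7.30 to 7.69 in GFP+ and 10.4 to 10.9 in GFP- cells with odorant, and 7.28 to 7.71 in GFP+ and 10.7 to 11 in GFP- cells with vehicle), as were 4 and 4 of 4 markers of globose basal and dividing cells. Of the epithelial lists, 4 and 5 of 5 ionocyte-like, 5 and 5 of 5 tuft-like and 2 and 6 of 7 sustentacular markers were lower. Of the 6 globose basal and dividing genes listed, 4 were measured. At background on every GFP+ array were all 4 of these, all 5 tuft-like, 3 immature neuron and 3 ionocyte-like markers. Neurog1 of the globose list and Chat of the tuft-like list were at background on all 16 arrays. Ionocyte-like markers had a list mean of 6.75 to 7.44 in GFP+ and 9.61 to 11.2 in GFP- cells with odorant, and of 6.59 to 6.99 in GFP+ and 9.96 to 10.9 in GFP- cells with vehicle. The sustentacular list mean was above background in both fractions, although 1 marker, Ermn, exceeded background on 1 of 8 GFP+ arrays. It lay at 8.52 to 10.1 in GFP+ and 10.3 to 11.9 in GFP- cells with odorant, and at 9.09 to 9.51 in GFP+ and 10.7 to 11.3 in GFP- cells with vehicle. Of the blood lists, 5 and 6 of 6 lymphocyte, 2 and 2 of 6 macrophage and monocyte and 1 and 1 of 1 red blood cell markers were lower. The lymphocyte markers Cd3g, Cd79b, Ms4a1 and Nkg7 were at background on every array, and all 6 of that list on every GFP+ array. No marker was called for horizontal basal (0 of 3), endothelial (0 of 5) or respiratory ciliated cells (0 of 3). All 3 horizontal basal and all 5 endothelial markers were at background on every array, so their lack of a call says nothing about those cells. Of the ciliated markers, Dnah5 was at background on every array. Bowman gland had 1 and 1 of 4 lower, smooth muscle and pericyte 2 and 1 of 6, fibroblast 0 and 1 of 4 and olfactory ensheathing glia 0 and 1 of 5, while 0 and 1 of 4 skeletal muscle markers were higher. Of these lists, 1 Bowman gland, 5 smooth muscle and pericyte, 3 fibroblast, 4 glia and 3 skeletal muscle markers were at background on every array.

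The lists that were lower moved the same way as Kcnk1, Kcnk5, Kcnk6, Kcnn4, Kcnj13, Kcnip3, Cacng4, Nrcam and Hvcn1, and their part in those differences was not tested. Of 8 markers of mature sensory neurons, 1 was higher with odorant and 2 with vehicle, none was lower, and their list mean was 16.1 to 16.2 in GFP+ and 15.8 to 16.1 in GFP- cells with odorant, and 16.1 to 16.3 in GFP+ and 16 to 16.1 in GFP- cells with vehicle. Of that list Cngb1 was at background on every array.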

How the data were processed

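The 16 Clariom S arrays measured transcript levels, 1 array per sorted fraction of each pool of 3 mice, from 50 to 100 ng of RNA turned into biotinylated cRNA. The deposited values are log2 probeset signals, made by the authors with Affymetrix Expression Console, per the submitters' processing notes. Its version and preprocessing settings are not stated in the sources used here. Values were used as deposited, and the number of arrays limits the precision. Of 28846 probesets, 6640 control probesets were left out. Symbols came from the platform annotation, where 19572 gene probesets carried 1 symbol, 0 several and 2634 none. All 125 channel genes matched the RefSeq gene table by gene ID, with 0 symbols changed. No column was without a sample (0 of 16). The build behind the array's annotation is likewise not stated, so only promoter windows have positions.

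The first 4 comparisons had 8 arrays each, and the interaction 16. They were fitted with limma 3.58.1 (lmFit and eBayes) in R 4.3.3, two-sided, over all 22206 gene probesets, after the code was tested on simulated data. Figures used Python 3.11.15 and matplotlib 3.10.9. Where no array of a group exceeded its background level, or the group mean lay under the mean level, a fold is a lower bound ("at least"), with values raised to the level before averaging. Where this holds for both groups, no fold is printed.

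The genes, the lists and the tests were chosen with earlier results of these data known. Every channel gene is named once. Values on every array are given for genes called in the same direction with both treatments, for the called gene of each role with the smallest p with vehicle, and for the 4 with the smallest p in each comparison of treatments among genes above background on all 4 arrays of at least 1 group. Genes called in 1 fit are named with their means. Partner genes are named where called, and Cnga2 was added after its values were seen.

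Fractions that share a treatment and a number share a pool, as 24 mice in pools of 3 give 8 pools. Their deviations from the group means correlated with r of 0.0136 to 0.356 with odorant and 0.113 to 0.156 with vehicle. Between treatments, equal numbers are only names (r of -0.104 to 0.305). Alternatives were quantile normalization, subtraction of array medians, leaving out dim probesets, a variance trend, a shared fit of 16 arrays, robust variances for the interaction, the replicate number as a block, leaving out each replicate, and other background levels.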

Additional observations from a re-analysis of the deposited data

Results flagged for a closer look

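In 48 channel genes, each with 4 groups of 4 arrays, 1 array stood apart from the other 3 of its group in 13 of 192 groups, where chance gives about 9.6. The test was Dixon's at the 95% level, and no cause was tested.

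Among calcium and sodium channel genes, Cacna1a was at 6.11 in GFP+ replicate 4 of odorant mice, against 6.56 to 6.61 on the other 3 arrays. Over all alternatives, including those without single replicates, its difference between odorant and vehicle in GFP+ cells was -0.802 to -0.633. Cacna1d was at 11.60 in GFP- replicate 1 of vehicle mice, against 10.94 to 11.03. Scn2a was at 8.95 in GFP- replicate 3 of odorant mice, against 9.28 to 9.34. Hcn4 was at 11.29 in GFP+ replicate 2 of odorant mice, against 10.74 to 10.80.

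Kcnh7, an ERG-type potassium channel, had such an array in all 4 groups, each time a high one but for GFP+ cells of vehicle mice. It was at 7.93 in GFP+ replicate 1 and 7.79 in GFP- replicate 2 of odorant mice, against 7.48 to 7.54 and 7.41 to 7.45 on the other arrays. In vehicle mice it was at 7.02 in GFP+ replicate 1, against 7.97 to 8.14, and at 8.29 in GFP- replicate 4, against 7.17 to 7.32.

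Kcna1 was at 6.0 in GFP+ replicate 3 of odorant mice, against 6.75 to 6.82, and Kcnh2 at 10.87 in GFP+ replicate 1, against 10.73 to 10.74. Kcnn2 was at 12.27 in GFP- replicate 3 of odorant mice, against 11.85 to 11.91. Kcnn4, under background throughout, was at 4.40 in GFP+ replicate 2 of odorant mice, against 3.48 to 3.64. Kcna2 was at 13.18 in GFP+ replicate 4 of vehicle mice, against 12.96 to 12.98.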

How the results depend on the processing

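Between the fractions with odorant, higher calls were 5 on the deposited scale, 56 with array medians subtracted (44.8%, against 34.9% of all gene probesets) and 4 to 5 without single replicates, and lower calls 6, 3 without dim probesets (7.32%, against 10.5%) and 6 to 6 without single replicates. With vehicle, higher calls were 13, 20 after quantile normalization (16%, against 11.5%), 68 with array medians subtracted (54.4%, against 46.7%), 21 with a variance trend (16.8%, against 8.38%) and 11 to 13 without single replicates. Lower calls were 6, 2 without dim probesets (4.88%, against 13.1%), which tests 41 of the 125 genes, and 6 to 6 without single replicates. Higher calls without dim probesets were 5 with odorant (12.2%, against 5.63%) and 14 with vehicle (34.1%, against 15.1%). With the replicate number as a block they were 7 higher and 6 lower with odorant (5.6% and 4.8%, against 3.98% and 8.18%) and 12 higher and 6 lower with vehicle (9.6% and 4.8%, against 7.57% and 10.1%), and of the calls only those of Kcnab2, Kcng1 and Kcnj5 changed. Calls of channel genes between treatments and in the interaction were 0 under every alternative run. Kcnh4 with odorant was -0.0465 (reversed) to 0.242 without single replicates, the lowest without GFP- replicate 1. Kcnd1 was lost in the shared fit of 16 arrays (adjusted p = 0.068), and with array medians subtracted it passed with odorant (0.044), as did Kcng1 (0.026). The cause of these changes was not tested. Of the alternatives for named genes, 207 of 219 with odorant, 240 of 259 with vehicle and all 56 in each comparison of treatments kept direction and call. Genes above background on all arrays were 36 with the 90th percentile of the controls, 31 with their highest, and 39 by the mean over all arrays, a rule added after seeing the data. The 4 arrays per group limit what can be called, and signals under background bound no change in transcript.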
